A study of Homo sapiens with 12 samples.

Results

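A set of 9 neuroendocrine genes was followed in C4-2 cells, an androgen-responsive prostate cancer line derived from LNCaP, after 6 h of exposure to DMSO vehicle or to PBKi. PBKi is HI-TOPK-032, which blocks the catalytic activity of the kinase PBK, and the labels give a concentration of 1 µM. The genes were DDC, CHGA, CHGB, SCG2, SYP, INSM1, NCAM1 and SRRM4, together with REST, the repressor of neuronal genes. They were chosen by name, as a list of neuroendocrine genes, with earlier results of these data known. They are 9 of the 54127 gene identifiers in the count files. RNAseq covered 6 libraries of DMSO-treated and 6 libraries of PBKi-treated cells, all grown in RPMI medium with 10% FBS. All 12 libraries came from the same cell line, and nothing in the labels says whether replicates were separate cultures, so p-values measure the spread between these samples, which may be technical. The labels describe RNA of flow sorted cells without naming the sort, and in bulk RNA fewer expressing cells cannot be told apart from less RNA per cell.

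Neuroendocrine cells store amines and peptides in dense-core granules. Chromogranin A (CHGA), chromogranin B (CHGB) and secretogranin II (SCG2) are cargo of these granules, synaptophysin (SYP) is a membrane protein of small vesicles, and DDC is the decarboxylase that makes dopamine and serotonin. In prostate cancer, gain of such markers with loss of androgen signalling marks the neuroendocrine form of the disease, and INSM1 (a zinc finger factor) and NCAM1 (an adhesion molecule, CD56) are used in its diagnosis. REST represses many of these genes in other cells by binding a DNA element called RE1 and recruiting histone deacetylases and demethylases. SRRM4 is a neural splicing factor that promotes a truncated REST isoform with less repressor function.

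The reference sequence (GRCh37) was searched for RE1, as the link between REST and the other genes. The search took TTCAGCACC, 2 free bases and GGACAG, on both strands, with at most 2 mismatches over the 15 fixed bases, within 5 kb of each gene start. 4 of the 9 genes held a match, and all 4 lay on the strand of the gene. In the lines here capitals mark both parts of the element, and lower case marks the free and flanking bases.
CHGA: cgagttTTCAGCACCgcGGACAGcgcctc
CHGB: gggccgGTCAGCACCgcGGACAGcgccag
SRRM4: ccacgtTTCAGCACTttGGACAGcgcccc
SYP: acgcgcTCCAGCACCgtGGACAGagcccg

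The CHGA stretch (chr14:93389862-93389890, plus strand) lay 373 bases after the gene start in an intron and had 0 mismatches. The CHGB stretch (chr20:5892344-5892372, plus strand) lay 194 bases after the start in an intron, with 1 mismatch. The SRRM4 stretch (chr12:119419632-119419660, plus strand) lay 292 bases after the start in an annotated UTR, with 1 mismatch. The SYP stretch (chrX:49056579-49056607, minus strand) lay 76 bases after the start in an intron, with 1 mismatch. In the other genes the best match had 3 mismatches (INSM1 and REST itself) or 4 mismatches (DDC, NCAM1 and SCG2), so these letters were not in their windows. Of all 20136 protein-coding genes, 1088 (5.40%) held a match. A match describes the letters only, as no binding of REST was measured in these libraries.

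Reads on genes ranged from 9663203 to 28029908 per library in DMSO and from 13122415 to 22817803 in PBKi. The share of reads outside genes was 5.98% to 7.25% among DMSO libraries and 6.21% to 9.71% among PBKi libraries, where replicates 3 (9.71%) and 6 (9.22%) were highest. In a principal component analysis, the leading component carried 61.0% of the variance, and the next, with 9.76%, set replicates 1 to 3 apart from replicates 4 to 6. The luminal identity of the line was visible in all libraries. The summed level of 8 luminal markers lay between 4592 and 5389 CPM in DMSO and between 2556 and 3346 CPM in PBKi. KLK3 was the highest of the 8 in both groups, with a mean of 2959 CPM in DMSO and 1131 CPM in PBKi. Its fall weighed most in this sum, which therefore does not describe the 8 markers evenly. Of the 8, 1 was called higher and 4 lower in PBKi. Of 14 measured markers of other cell types, the summed level was 19.9 to 25.8 CPM in DMSO and 18.2 to 23.7 CPM in PBKi, most of it COL1A1, a collagen gene. CD3E and S100B, which mark T cells and glia, had 1 and 4 reads in all 12 libraries. KRT5, a basal keratin, was at 0 in every DMSO library and between 0.148 and 0.312 CPM in every PBKi library, and its part in the results was not tested.

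Only 3 of the 9 genes (DDC, REST and SYP) reached 10 counts in at least 6 libraries and were tested among 14505 genes. CHGA, CHGB, SCG2, INSM1, NCAM1 and SRRM4 stayed below that level. These 6 genes were close to the limit of detection, whereas DDC and REST had at least 275 reads in every library. Scaled to exon length, DDC was at 14.5 ± 0.861 CPM per kb (SD, n = 6) in DMSO, REST at 11.9 ± 1.80 and SYP at 0.188 ± 0.0544. The DDC libraries (13.2 to 15.5 CPM per kb) overlapped with those of REST (10.3 to 15.2), and SYP lay far below both. In PBKi the order of DDC and REST was the other way round, at 7.22 ± 0.786 CPM per kb for DDC and 12.9 ± 0.918 for REST (SD, n = 6), without overlap of the libraries.

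DDC (ENSG00000132437), on the minus strand at chr7:50526134-50633102, fell to 0.496 of its DMSO level in PBKi. In CPM, the read count scaled to library size, DMSO replicates 1 to 6 had 47.5, 45.0, 47.8, 44.4, 40.8 and 43.1. PBKi replicates 1 to 6 had 22.3, 21.7, 19.3, 24.3, 25.8 and 20.3 CPM. Every PBKi library was below every DMSO library, a separation that 9.68% of all tested genes also showed. The means were 44.8 ± 2.65 CPM in DMSO and 22.3 ± 2.42 CPM in PBKi (SD, n = 6), and the level in DMSO exceeded that of 75.7% of the tested genes per kb. On the log2 scale DDC fell by 1.01 (standard error 0.071, 95% interval -1.16 to -0.86). Its p, adjusted by the Benjamini-Hochberg method over all genes tested with the quasi-likelihood test of edgeR, was 6.43e-09. A two-sided exact permutation test over the libraries gave p = 0.00216, the smallest that the arrangements of 6 and 6 libraries allow. Across all genes, 21.5% were called lower in PBKi and 20.1% higher, and the median log2 fold change was -0.012.

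The fall of DDC did not rest on a single library, as the log2 fold change lay between -1.05 and -0.97 with each library left out in turn. Without PBKi replicate 3, which had the lowest DDC level and the most reads outside genes, it was -0.97. In replicates 1 to 3 alone it was -1.15, and in replicates 4 to 6 alone -0.86 (adjusted p = 0.000107 from edgeR). The difference between these sets was 0.29 (standard error 0.12, unadjusted p = 0.0282, adjusted p = 0.927 from edgeR's interaction term), a test in which 0 of 14505 genes were called and 700 had an unadjusted p under 0.05. An antisense gene, DDC-AS1, overlaps DDC and had 0 reads in DMSO and 3 in PBKi, against 4421 and 2269 reads for DDC.

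REST (ENSG00000084093), on the plus strand at chr4:57774042-57832974, was expressed above 71.0% of the tested genes per kb in DMSO and was not called changed by PBKi. DMSO replicates 1 to 6 had 102, 103, 97.1, 119, 107 and 143 CPM. PBKi replicates 1 to 6 had 109, 120, 118.2, 121, 131 and 132 CPM. DMSO replicate 6 was the highest of all 12 libraries and the groups overlapped. The means were 112 ± 16.9 CPM in DMSO and 122 ± 8.64 CPM in PBKi (SD, n = 6). The difference on the log2 scale was 0.12 (standard error 0.082, adjusted p = 0.233 from edgeR), and its 95% interval of -0.047 to 0.30 corresponds to a ratio of 0.968 to 1.23. The two-sided exact permutation test gave p = 0.188.

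The REST call depended on DMSO replicate 6. Without that library the log2 fold change was 0.21 (adjusted p = 0.0104 from edgeR), and in replicates 1 to 3 alone it was 0.21 (adjusted p = 0.0066). In replicates 4 to 6 alone it was 0.055 (adjusted p = 0.749), and the difference between the sets was -0.15 (standard error 0.12, adjusted p = 0.928 from the interaction term). NOA1, a gene for a mitochondrial GTPase, overlaps REST on the opposite strand and had 7975 reads in DMSO and 6813 in PBKi. Whether counting used strand is not given in the sources used here. It is therefore not known whether reads of the shared stretch were given to a gene or set aside as ambiguous. Ambiguous reads made up 3.87% to 4.35% per library. Gene counts also do not separate full-length REST from its truncated isoform.

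SYP (ENSG00000102003), on the minus strand at chrX:49044268-49056677, was detected in every library at a low level. DMSO replicates 1 to 6 had 1.44, 0.627, 1.19, 1.38, 1.73 and 1.51 CPM, from 8 to 33 reads each. PBKi replicates 1 to 6 had 1.35, 1.18, 1.44, 1.61, 1.14 and 1.70 CPM, from 17 to 36 reads each. The groups overlapped over almost their whole range, and the lowest value belonged to DMSO replicate 2. The means were 1.31 ± 0.380 CPM in DMSO and 1.4 ± 0.225 CPM in PBKi (SD, n = 6). The difference on the log2 scale was 0.12 (standard error 0.20, adjusted p = 0.647 from edgeR, 95% interval -0.29 to 0.54), and the two-sided exact permutation test gave p = 0.656. In replicates 4 to 6 alone the log2 fold change was -0.031 (adjusted p = 0.968), so no direction was established.

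**Figure D1:**
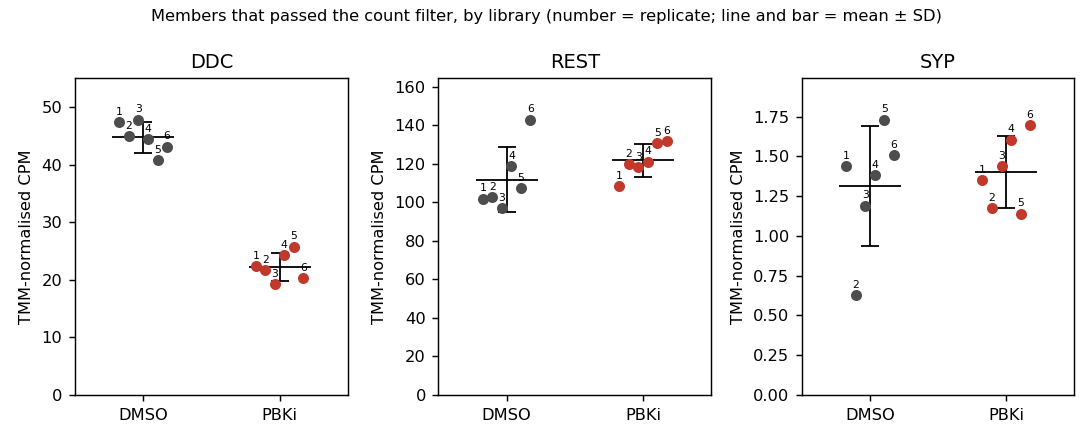
TMM-normalised CPM of DDC, REST and SYP in each of the 12 libraries, numbered by replicate, with the mean and SD of each group; each panel has its own linear axis from 0. DDC lies between 40.8 and 47.8 CPM in DMSO and between 19.3 and 25.8 CPM in PBKi, whereas the groups overlap for REST and SYP.

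CHGA (ENSG00000100604), on the plus strand at chr14:93389495-93401630, was barely detectable but had more reads in PBKi. DMSO replicates 1 to 6 had 1, 0, 3, 2, 0 and 0 reads, and PBKi replicates 1 to 6 had 1, 1, 10, 9, 4 and 3 reads. Reads were present in 3 of 6 DMSO libraries and in 6 of 6 PBKi libraries, and 4 PBKi libraries lay above every DMSO library after scaling. DMSO replicates 2, 5 and 6, which had no CHGA reads, had fewer reads on genes (9663203 to 12750437) than any other library. PBKi replicates 3 and 4 were the deepest PBKi libraries, and the part of depth was not tested. PBKi replicates 3 and 4 supplied 19 of the 28 PBKi reads, and replicate 3 also had the most reads outside genes, whose part in the result was not tested. Pooled over libraries, CHGA was at 0.0619 CPM in DMSO (95% exact Poisson interval 0.0227 to 0.135) and at 0.274 CPM in PBKi (0.182 to 0.396), a ratio of 4.42 with a counting interval of 1.80 to 13.1. These intervals cover counting error only.

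When edgeR was run without the filter on low counts, CHGA was called higher (log2 fold change 2.00, standard error 0.61, adjusted p = 0.00985), in a fit of 33052 genes that called 10.2% of genes higher. With each library left out in turn, a check added after the values were seen, the log2 fold change lay between 1.76 and 2.43 and the adjusted p between 0.00384 and 0.0443, the highest without PBKi replicate 3. A two-sided exact permutation test over the libraries gave p = 0.0173 for CHGA, without adjustment for the number of genes tested this way. The same exact permutation test gave p = 0.331 for CHGB, 0.864 for SCG2, 0.509 for NCAM1 and 0.537 for SRRM4. No DMSO library exceeded 3 reads of CHGA, which corresponds to 0.108 to 0.325 CPM depending on the library. The difference thus concerned a transcript near the limit of counting in both groups.

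CHGB and SCG2, the other granins, were not called. CHGB (chr20:5892156-5905999, plus strand) had 2, 3, 1, 0, 0 and 2 reads in DMSO replicates 1 to 6 and 1, 0, 1, 1, 1 and 0 reads in PBKi replicates 1 to 6 (ratio 0.474, counting interval 0.104 to 1.77). SCG2 (chr2:224461658-224467079, minus strand) had 7, 1, 5, 4, 0 and 0 reads in DMSO and 2, 3, 2, 1, 3 and 0 reads in PBKi (ratio 0.613, counting interval 0.260 to 1.39). In the fit without a filter the values missed the threshold (adjusted p = 0.428 for CHGB and 0.490 for SCG2 from edgeR). No PBKi library exceeded all DMSO libraries for either gene.

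INSM1 (chr20:20348748-20351593, plus strand) had 0 reads in all 12 libraries, which allows a pooled level of up to 0.0381 CPM in DMSO and 0.0361 CPM in PBKi (upper 95% exact Poisson bounds). NCAM1 (chr11:112831997-113149158, plus strand) had 1, 2, 3, 6, 4 and 9 reads in DMSO replicates 1 to 6 and 2, 3, 3, 13, 1 and 2 reads in PBKi replicates 1 to 6. Its totals were 25 and 24 reads (ratio 0.910, counting interval 0.498 to 1.66, adjusted p = 0.815 in edgeR's fit without a filter). PBKi replicate 4 supplied 13 of the 24 PBKi reads. TTC12-DT, on the opposite strand within the span of NCAM1, had 37 reads in DMSO and 10 in PBKi. Without a stated strand setting it is not known how reads of any shared stretch were assigned. SRRM4 (chr12:119419346-119600856, plus strand) had 3, 0, 3, 0, 4 and 0 reads in DMSO and 3, 1, 3, 2, 0 and 5 reads in PBKi (ratio 1.33, counting interval 0.548 to 3.34, adjusted p = 0.722). At this depth no difference in NCAM1 or SRRM4 was detectable.

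**Figure D2:**
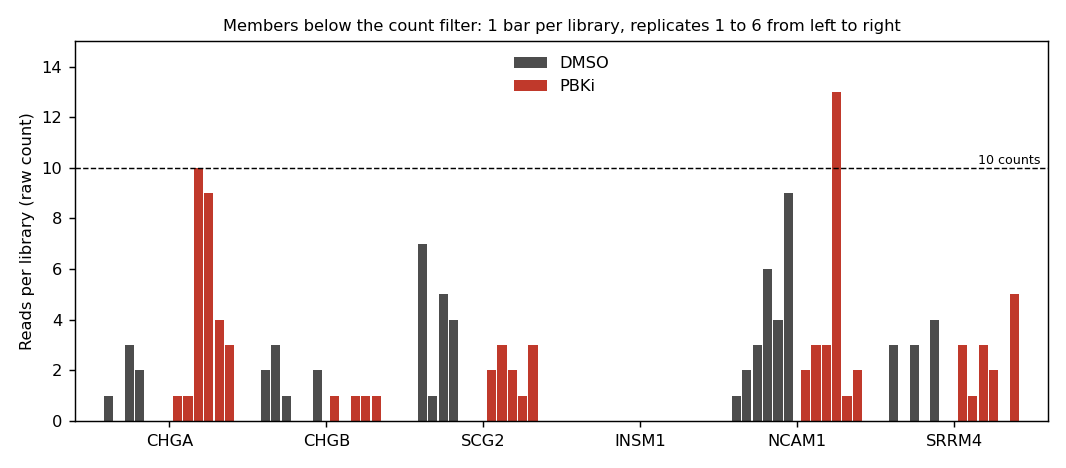
Raw reads per library for the 6 genes below the count filter, with a bar for each library in replicate order; the dashed line marks 10 counts. INSM1 is at 0 throughout, CHGA reaches 10 and 9 reads in PBKi replicates 3 and 4, and only NCAM1 in PBKi replicate 4 (13 reads) lies above the line.

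The enzymes and carriers around DDC in amine metabolism comprised 22 listed genes, of which 12 were tested. Of these, 1 rose, 0 fell and 11 were not called, against 20.1% higher and 21.5% lower over all genes tested, with a median log2 fold change of 0.026 (1 gene lower at an unadjusted p under 0.05 in edgeR, and 0 called lower by DESeq2 or limma-voom). SPR, sepiapterin reductase of tetrahydrobiopterin synthesis, rose from 41.1 ± 5.06 to 48.8 ± 3.10 CPM (SD, n = 6; log2 fold change 0.25, standard error 0.073, adjusted p = 0.0104 from edgeR), a call lost in replicates 4 to 6 only (adjusted p = 0.21). Over the alternatives, 0 to 2 genes of this list were called higher and 0 to 1 lower. TPH2, a tryptophan hydroxylase that acts upstream of DDC in serotonin synthesis, was at 23.6 CPM in DMSO and 24 CPM in PBKi. MAOA, which breaks down monoamines, was at 411 and 388 CPM, and SLC18A2, the vesicular monoamine carrier, at 13.5 and 11.5 CPM (adjusted p = 0.096). Tyrosine hydroxylase (TH) was among the 10 listed genes below the filter. Of 6 genes beside DDC on chromosome 7, 4 were tested and 1 fell (against 21.5% lower over all genes tested), COBL, an actin nucleator (30.8 to 22.7 CPM, log2 fold change -0.43, adjusted p = 0.00029 from edgeR), while GRB10, FIGNL1 and IKZF1 were not called. Without DMSO replicate 5, 2 of the 4 tested genes were called lower, as in replicates 1 to 3 only. With a covariate for the sets of replicates, or with the replicate number as a block, 3 of the 4 were called lower.

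Among 20 other genes of dense-core granules, 9 were tested, of which 2 rose and 2 fell, against 20.1% higher and 21.5% lower over all genes tested, with a median log2 fold change of -0.15. CPE, carboxypeptidase E of prohormone processing, fell from 48.0 ± 2.97 to 36.7 ± 3.76 CPM (SD, n = 6; log2 fold change -0.39, adjusted p = 0.000219 from edgeR). PAM, which amidates peptides, fell from 17.9 to 13.5 CPM (log2 fold change -0.40). The groups did not overlap for either enzyme, as for 9.68% of all genes in this direction. In replicates 4 to 6 only, CPE (adjusted p = 0.0669) and PCSK1N (adjusted p = 0.304 from edgeR) were not called. PCSK1N, which encodes a granin-like inhibitor of a prohormone convertase, rose from 1.76 ± 1.07 to 2.97 ± 0.173 CPM (SD, n = 6; log2 fold change 0.85, adjusted p = 0.00614), with the DMSO mean raised by replicate 5 at 3.89 CPM. Without DMSO replicate 3, 4 genes of this list were called lower. The other riser, CALCA, the calcitonin gene, was below 1 CPM on average in both groups.

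Of 20 vesicle and fusion genes related to SYP, 13 were tested, of which 0 rose and 6 fell, against 20.1% higher and 21.5% lower over all genes tested, with a median log2 fold change of -0.20. No riser appeared at an unadjusted p under 0.05 in edgeR (0 genes), or among calls of DESeq2 or limma-voom. SYT4, a synaptotagmin of vesicle fusion, fell from 37.2 ± 4.51 to 22.5 ± 4.93 CPM (SD, n = 6; log2 fold change -0.73, standard error 0.12, adjusted p = 0.000144), without overlap. The synaptogyrins SYNGR3 (11.8 to 8.28 CPM, log2 fold change -0.50) and SYNGR2 (270.3 to 197 CPM, log2 fold change -0.46), which belong to the family of SYP, also fell. RAB3A, a GTPase of vesicle release, fell from 24.6 to 18.3 CPM (log2 fold change -0.43), a call lost in replicates 4 to 6 only (adjusted p = 0.0795 from edgeR).

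Among 15 transcription factors and chromatin proteins linked to the neuroendocrine form of the disease, 7 were tested, of which 1 rose and 4 fell, against 20.1% higher and 21.5% lower over all genes tested, with a median log2 fold change of -0.25. HES6, an inhibitor of the Notch effector HES1, fell from 67.1 ± 11.8 to 42.5 ± 7.0 CPM (SD, n = 6; log2 fold change -0.66, standard error 0.11, adjusted p = 0.000185 from edgeR), without overlap. PEG10, a retrotransposon-derived gene, fell from 5.19 ± 1.19 to 3.08 ± 0.315 CPM (SD, n = 6; log2 fold change -0.73), and HES1 fell by 0.25 on the log2 scale, a call lost in replicates 4 to 6 only (adjusted p = 0.216 from edgeR). ONECUT2, a homeodomain factor, rose from 27.4 ± 4.54 to 35.3 ± 7.66 CPM (SD, n = 6; log2 fold change 0.38, adjusted p = 0.0259), with overlapping groups. This call was lost without DMSO replicate 1 (0.31), DMSO replicate 2 (0.35) or PBKi replicate 6 (0.28), and in replicates 4 to 6 only (0.35). NEUROD1, FOXA2 and SOX2 were not among the genes tested.

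All 18 listed REST corepressors and chromatin enzymes were tested, of which 0 rose and 8 fell, against 20.1% higher and 21.5% lower over all genes tested, with a median log2 fold change of -0.10. In edgeR 1 gene was higher at an unadjusted p under 0.05, and 0 were called higher by DESeq2 or limma-voom. Without DMSO replicate 5, edgeR called 1 gene higher. HMG20B, a subunit of the demethylase complex, fell from 167 ± 22.0 to 102 ± 11.0 CPM (SD, n = 6; log2 fold change -0.72, standard error 0.085, adjusted p = 3.2e-06 from edgeR). Histone deacetylase HDAC1 fell from 344 to 271 CPM (log2 fold change -0.34), and the histone demethylase KDM1A from 160 to 127 CPM (log2 fold change -0.33). HDAC2 (log2 fold change -0.23) and the scaffold SIN3A (-0.21) fell by less. RCOR1, the corepressor that joins REST to these enzymes, was at 84.4 CPM in DMSO and 81.1 CPM in PBKi (log2 fold change -0.054, adjusted p = 0.518). The related RCOR2 was called lower at a low level, from 1.11 to 0.597 CPM with overlapping groups (log2 fold change -0.82, adjusted p = 0.0229 from edgeR). RCOR3 was not called (log2 fold change -0.12, adjusted p = 0.215 from edgeR). The groups did not overlap for HMG20B, HDAC1, KDM1A or HDAC2, a separation shown by 9.68% of all genes.

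REST protein turns over through kinases, phosphatases and ubiquitin ligases, which messenger levels do not measure directly. All 12 listed genes of this kind were tested, of which 0 rose and 6 fell, against 20.1% higher and 21.5% lower over all genes tested, with a median log2 fold change of -0.14. Higher genes numbered 0 at an unadjusted p under 0.05 in edgeR, and 0 among calls of DESeq2 or limma-voom. CSNK1E, a casein kinase, fell from 223 to 183 CPM (log2 fold change -0.29, adjusted p = 0.000299 from edgeR), and CTDSP1, a phosphatase, from 55.6 to 47.6 CPM (-0.22). BTRC, a ubiquitin ligase subunit, was at 21.0 and 19.8 CPM and was not called. Without DMSO replicate 4 or PBKi replicate 1, 2 or 3, only 2 falls were called in this list. CTDSP1 lost its call without any of these or DMSO replicate 5 (log2 fold change -0.21 to -0.15), and in replicates 4 to 6 only (-0.22).

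Of 26 neuronal genes known as REST targets, 15 were below the filter and 11 were tested, of which 1 rose and 2 fell, against 20.1% higher and 21.5% lower over all genes tested, with a median log2 fold change of -0.0072. The falls were SYT4 and RAB3A, which also stand in the list of vesicle genes. The riser was UNC13A, a factor of vesicle priming, at 0.707 CPM in DMSO and 1.21 CPM in PBKi (log2 fold change 0.81). VGF, a granin-like peptide precursor, was at 6.32 and 6.57 CPM, and L1CAM, a neural adhesion molecule, at 1.90 and 1.79 CPM. An RE1 match within 5 kb of the start was present in 13 of the 26 genes (50%), against 5.40% of all protein-coding genes. The list was drawn up as genes with an RE1 site known to be bound by REST. A high share was thus set by the choice of genes and is not a result of these data.

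Over the whole table, 582 of 12385 tested protein-coding genes held an RE1 match (4.70%), compared with 506 of 7751 that were not tested (6.53%). Of the 582 genes, 21.8% were called higher and 22.5% lower in PBKi, and their median log2 fold change was -0.019. The values for all tested protein-coding genes were 20%, 23.6% and -0.021. CHGA, CHGB and SRRM4 held a match and were below the filter, whereas SYP held a match and was tested.

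Of 20 neural splicing regulators, 14 were tested, of which 2 rose and 5 fell, against 20.1% higher and 21.5% lower over all genes tested, with a median log2 fold change of -0.12. SRRM3, the paralogue of SRRM4 with which it shares neural microexon targets, fell from 7.37 ± 1.30 to 3.62 ± 0.752 CPM (SD, n = 6; log2 fold change -1.0, standard error 0.15, adjusted p = 5.28e-05 from edgeR), without overlap. MBNL2, a muscleblind splicing factor, rose from 8.55 ± 1.61 to 16.0 ± 2.16 CPM (SD, n = 6; log2 fold change 0.93, adjusted p = 6.74e-06), also without overlap. NOVA1, a neuronal RNA-binding protein, rose from 35.4 to 44.8 CPM (log2 fold change 0.35). ELAVL2, from a family of neuronal RNA-binding proteins, fell from 7.78 to 5.33 CPM (-0.57), and RBFOX2 from 86.5 to 65.8 CPM (-0.39). SRRM1 fell by 0.14 on the log2 scale, a call that was lost without any single library other than DMSO replicate 1 or PBKi replicate 5 (log2 fold change -0.14 to -0.12 without the library). SRRM2 was at 468 and 456 CPM (log2 fold change -0.038, adjusted p = 0.763).

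Of 12 neural adhesion genes related to NCAM1, 8 were tested, of which 1 rose and 3 fell, against 20.1% higher and 21.5% lower over all genes tested, with a median log2 fold change of -0.092. CADM1, an adhesion molecule of the immunoglobulin type, fell from 12 to 6.56 CPM (log2 fold change -0.87, adjusted p = 5.8e-07 from edgeR). FGFR1, a receptor that NCAM1 can bind, fell from 6.62 to 4.25 CPM (-0.61), and NFASC, neurofascin, from 1.90 to 1.26 CPM (-0.55). ALCAM rose from 125 to 151 CPM (log2 fold change 0.27). The NFASC call was lost without the low count filter (adjusted p = 0.056), in replicates 1 to 3 only (0.0629) and in replicates 4 to 6 only (0.202). The FGFR1 (adjusted p = 0.0736) and ALCAM (adjusted p = 0.227 from edgeR) calls were lost in replicates 4 to 6 only. NCAM2, the paralogue of NCAM1, was at 327 CPM in DMSO and 292 CPM in PBKi and was not called (adjusted p = 0.0616).

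**Figure D3:**
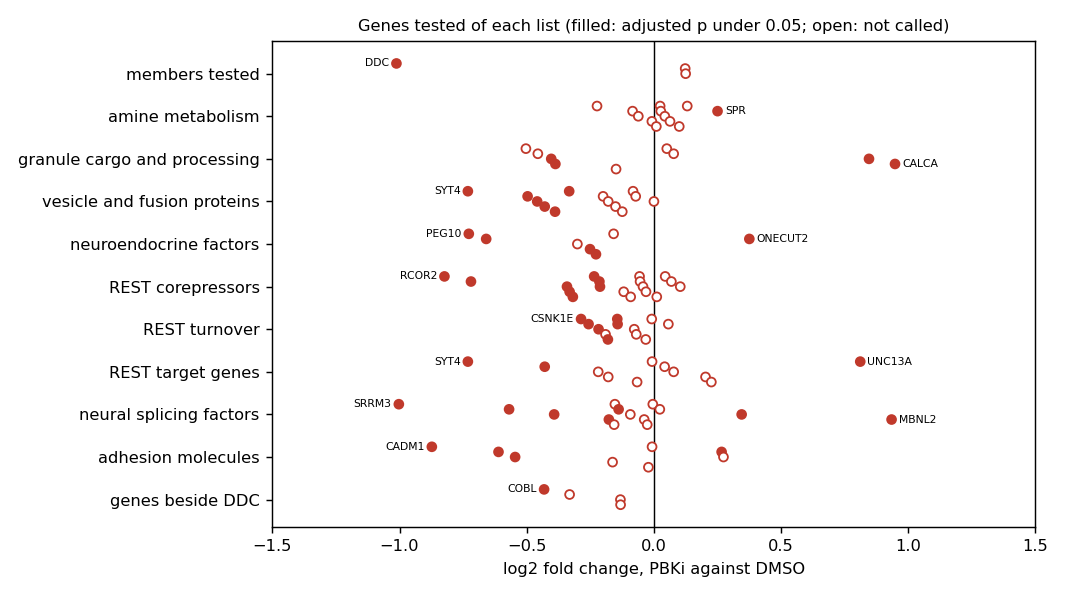
log2 fold change of PBKi against DMSO for each tested gene of the lists; filled points had an adjusted p under 0.05 in edgeR, open points did not, and a gene at either end of a list is named where it was called. DDC lies at -1.01, SRRM3 at -1.0 and MBNL2 at 0.93, and amine metabolism holds 1 filled point.

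The luminal genes were read beside the neuroendocrine ones. KLK3, the androgen-responsive gene of prostate-specific antigen, fell from 2959 ± 214 to 1131 ± 241 CPM (SD, n = 6; log2 fold change -1.39, standard error 0.12, adjusted p = 7.68e-08 from edgeR). HOXB13 (302 to 199 CPM, log2 fold change -0.60) and FOXA1 (382 to 303 CPM, -0.34), factors of luminal identity, fell, while FOLH1, the gene of prostate-specific membrane antigen, rose from 506 to 634 CPM (log2 fold change 0.33). In all, 1 of 8 luminal markers rose (2 without DMSO replicate 5) and 4 fell, against 20.1% higher and 21.5% lower over all genes tested. Of the other markers, 2 were tested and 1 fell, KRT14, a basal keratin, from 1.4 to 0.829 CPM (-0.73). The KRT14 call was lost in lanes 6 to 8 only (adjusted p = 0.163), in replicates 1 to 3 only (0.120) and in replicates 4 to 6 only (0.0898), and a minimum of 50 counts removed the gene.

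The genes most like DDC over the 12 libraries, by Pearson correlation of log2 CPM, were HMGB2, a chromatin protein of proliferating cells (r = 0.991), NDC1, a nuclear pore protein (0.990), and IPO5, a nuclear import receptor (0.988). Since the treatment separates the libraries, r was also taken on deviations from the group means, where HMGB2 had 0.881. REST was most like KMT2E (0.982), RMND5A (0.968) and EIF4G3 (0.963), and KMT2E had 0.984 on deviations. SYP was most like PPP2R3A (0.875), DCTD (0.864) and FAAP24 (0.856). These values describe 12 libraries that share their treatment groups and sets of replicates, and each was picked as the highest of all tested genes.

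**Figure D4:**
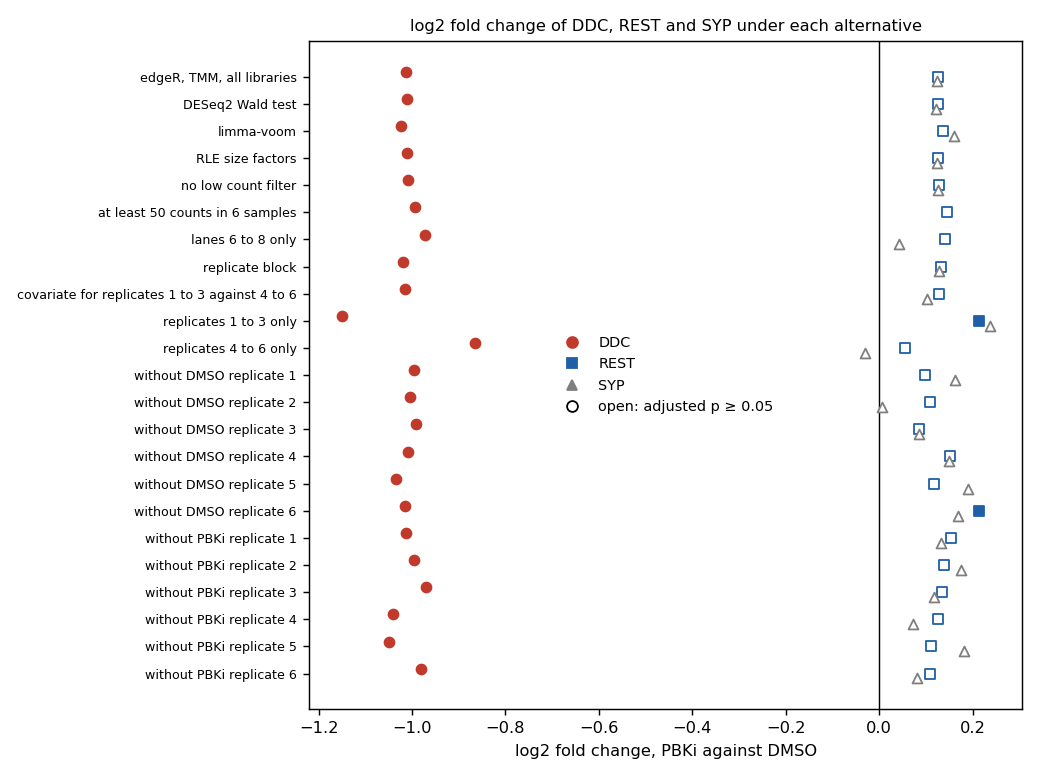
log2 fold change of DDC, REST and SYP in the edgeR fit of all libraries and under each alternative; filled points had an adjusted p under 0.05. DDC lies between -1.15 and -0.86 throughout, REST is filled without DMSO replicate 6 and in replicates 1 to 3 only, and SYP falls below 0 in replicates 4 to 6 only.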

How the data were processed

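RNA of C4-2 cells treated with DMSO or PBKi (6 libraries each) was sequenced as single-end reads. Per the labels and the study's methods, the authors aligned reads to GRCh37 with TopHat2 2.0.4, counted reads per gene with HTSeq 0.5.3p9 and tested them with DESeq 1.10.1. The deposited values are raw counts per gene and lane, in 47 lane files, without normalisation. The labels and the paper name different extraction kits. Strand setting is not given in the sources used here.

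Lane counts of 1 library scattered as sampling allows (chi-square over degrees of freedom 0.990 to 1.02), so they were summed. DMSO replicate 5 had 3 lanes and the others 4. The 14505 genes that reached 10 counts in 6 or more libraries were compared with edgeR 4.0.16 (R 4.3.3), TMM factors and the quasi-likelihood test without covariates, with Benjamini-Hochberg adjustment at 0.05 over all genes tested. CPM used TMM-scaled library sizes. Permutation tests used log2 CPM (prior count 2) and all arrangements of 6 and 6 libraries. Symbols (47098 of 54127 identifiers), exon lengths and coordinates came from GENCODE 44 on GRCh37, newer than the authors' annotation. Sequences were read from the GRCh37 reference. The procedure was tested on simulated data.

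The 9 genes and all lists were chosen with earlier results of these data known. Named were the 9 genes, up to 3 rises and 3 falls per list (mean of at least 1 CPM), paralogues and partners of SRRM4 and REST, KLK3, and the 3 genes most correlated with each tested member. Other genes quoted by value, such as TPH2, MAOA, SLC18A2, BTRC, VGF, L1CAM, NCAM2, KRT5, CALCA, UNC13A, RCOR2 and RCOR3, were chosen after their values were seen. Alternatives were DESeq2 1.42.0, limma-voom (limma 3.58.1), RLE factors, 2 other filters, lanes 6 to 8, a replicate block, a covariate for replicates 1 to 3 against 4 to 6, each set alone, and leaving out each library. Some genes of the lists are counted but not reported here by name.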

Additional observations from a re-analysis of the deposited data

Results flagged for a closer look

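Dixon's test, which chance passes in about 1 in 20 groups, marked a single library in 5 of the 94 groups of 6 values (5.32%). NCAM1 in PBKi replicate 4 was at 0.580 CPM (13 reads), where the other PBKi libraries lay between 0.0671 and 0.207 CPM. SRRM4 in DMSO replicate 5, the shallowest library, was at 0.433 CPM from 4 reads, where the others lay between 0 and 0.144 CPM. PCSK1N in DMSO replicate 5 was at 3.89 CPM (36 reads), where the others lay between 0.923 and 1.49 CPM. HDAC1 in DMSO replicate 4 was at 333 CPM, where the others lay between 344.8 and 347 CPM. SRRM1 in PBKi replicate 5 was at 165 CPM, where the others lay between 140.3 and 148 CPM.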

How the results depend on the processing

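The fall of DDC stayed called in every alternative run, at log2 fold changes from -1.15 to -0.86 (-1.05 to -0.97 with each library left out). REST was called higher in replicates 1 to 3 only (0.21) and without DMSO replicate 6 (0.21), within 0.085 to 0.21 over single-library omissions, and was not called in the other alternatives. SYP was never called, ranged from 0.0070 to 0.19 over single-library omissions, and was -0.031 in replicates 4 to 6 only. It had no value at a minimum of 50 counts, which removed it. In replicates 4 to 6 only, with fewer samples, 1303 genes were called higher and 1216 lower, against 2921 and 3125 in all libraries, and single-library omissions gave 2579 to 3364 and 2618 to 3250. SRRM2, which was not called, turned positive in replicates 1 to 3 only (0.024) and without DMSO replicate 5 (0.0018), DMSO replicate 6 (0.015) or PBKi replicate 1 (0.0092), within -0.094 to 0.015 over single-library omissions, and the cause was not tested. Of 867 values of the 40 genes chosen by the naming rule under alternatives, 822 kept their direction and side of the threshold and 39 lost the call.

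Replicate numbers were to be taken as pairing the samples only if deviations of same-numbered libraries correlated over 0.1 in all pairs. The correlation was 0.0887 in replicate 5 and 0.108 to 0.299 in the other 5 pairs, so this criterion was missed by 1 pair, and the labels do not say what the numbers share. In both groups 4 of 6 libraries correlated best with their own number. DMSO replicates 2 and 5 instead correlated best with PBKi replicates 3 and 4, which lie in the same sets (1 to 3 and 4 to 6). This is a hint of pairing by number or of sharing within the sets, which cannot be told apart here. With the replicate block, 3485 genes were called higher and 3803 lower, and DDC was at -1.02 and REST at 0.13 (adjusted p = 0.0523 from edgeR).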
